A study of Mus musculus with 7 samples.

Results

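The immortalisation and senescence control genes described here are 10 regulators of the decision between continued division and permanent arrest: Cdkn2a, Cdkn2b, Cdkn2c, Rb1, Rbl1, Rbl2, Myc, Bmi1, Tert and Mdm4. They were chosen by gene symbol, each had 1 probe set with that single symbol, and all 10 were among the 16801 genes tested of 19937 genes with a single symbol on the array. Their log2 signals were read on 7 whole-transcript expression arrays of mouse embryonic fibroblasts. The knockout group was 2 clones labelled as coming from a knockout mouse for tenascin-C (Tnc), a large adhesion-modulating matrix glycoprotein. The knockdown group was 2 clones from a wild-type mouse carrying a stably transfected short hairpin RNA against Tnc, and the wild-type group was 3 clones with neither change. Every clone, wild type included, had become immortal spontaneously and received no treatment; 50000 cells were seeded per well and kept for 2 days in medium with fetal calf serum. No group with a control hairpin is analysed here, and each array is 1 clone, so the spread within a group is a spread between immortalised clones.

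Primary mouse fibroblasts stop dividing after a limited time in culture, and the Cdkn2a locus is central to that arrest. It encodes p16Ink4a, which holds the retinoblastoma family active by blocking the cyclin D kinases, and p19Arf, which stabilises p53 by restraining Mdm2. Fibroblasts that escape spontaneously are known for having lost either the Arf or the p53 arm, while Myc and the polycomb protein Bmi1 push towards division, Bmi1 by repressing the Cdkn2a locus. Mouse fibroblasts commonly keep long telomeres, so telomere loss is not regarded as the main barrier in them.

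The start regions of 4 windows are printed because they bear on what the probe sets can show: Cdkn2a is read through 1 probe set although its 2 products start from separate exons, and Rbl1 and Bmi1 hold a match to the factors that act around the pocket proteins and Myc. Sequences are the 250 bases before the annotated RefSeq start on assembly GRCm38.p6, written 5′ to 3′ on the gene's strand, and 8 of the 10 members had such a window, 11 windows in all (Rb1 and Myc had none). Capitals mark an E2F match (TTTCCCGC, TTTCGCGC, TTTGCCGC or TTTGGCGC, on either strand) or an E-box match (CACGTG), which do not overlap here. An E2F match was present in 1.86% and an E-box match in 6.02% of 32851 such windows.
Cdkn2a, upstream start (chr4:89294620-89294869, minus strand): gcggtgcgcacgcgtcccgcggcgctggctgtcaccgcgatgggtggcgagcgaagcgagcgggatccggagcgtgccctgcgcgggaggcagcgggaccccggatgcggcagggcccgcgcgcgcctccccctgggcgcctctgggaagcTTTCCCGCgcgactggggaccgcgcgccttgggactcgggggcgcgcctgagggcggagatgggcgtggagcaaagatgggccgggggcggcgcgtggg
Cdkn2a, downstream start (chr4:89282193-89282442, minus strand): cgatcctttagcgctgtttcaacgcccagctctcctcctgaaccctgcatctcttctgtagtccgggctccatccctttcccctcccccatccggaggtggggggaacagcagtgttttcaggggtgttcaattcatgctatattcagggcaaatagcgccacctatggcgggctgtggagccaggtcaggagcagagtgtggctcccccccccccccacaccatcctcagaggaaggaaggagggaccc
Rbl1 (chr2:157204535-157204784, minus strand): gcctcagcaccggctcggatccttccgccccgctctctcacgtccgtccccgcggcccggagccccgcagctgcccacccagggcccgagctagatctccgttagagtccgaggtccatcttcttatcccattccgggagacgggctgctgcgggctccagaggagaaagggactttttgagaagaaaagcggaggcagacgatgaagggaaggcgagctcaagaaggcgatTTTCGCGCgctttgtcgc
Bmi1 (chr2:18676768-18677017, plus strand): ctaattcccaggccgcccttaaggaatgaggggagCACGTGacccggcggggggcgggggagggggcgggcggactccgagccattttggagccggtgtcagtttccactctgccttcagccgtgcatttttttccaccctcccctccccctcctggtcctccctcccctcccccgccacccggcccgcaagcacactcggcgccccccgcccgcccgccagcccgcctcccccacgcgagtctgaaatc
The 2 Cdkn2a starts lie 12427 bases apart and differ in base composition: the upstream window, before the first exon of p19Arf, is 78.4% G and C with 40 CpG pairs, and the downstream window, before the first exon of p16Ink4a, is 60% with 7. The median over all windows was 6 CpG pairs. The Cdkn2a match starts 99 bases before the upstream start, the Rbl1 match 18 bases before its start and the Bmi1 match 215 bases before its start. No other window of a member held a match to these letters. These matches describe the letters only.

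Tnc itself was lower in both deficient groups than in wild type. Its log2 signal was 8.05 and 8.51 in knockout clones and 7.34 and 6.52 in knockdown clones, against 10.89, 11.42 and 11.38 in wild-type clones. It fell in knockout (log2 difference -2.95 ± 0.295 SE, adjusted p = 0.042) and in knockdown (-4.30 ± 0.295 SE, adjusted p = 0.0339). Leaving out any 1 of the 7 arrays ended both calls, with adjusted p of 0.0742 to 0.164 in knockout and 0.095 to 0.297 in knockdown, while the differences stayed between -3.17 and -2.72 and between -4.70 and -3.89. The knockout clones kept a Tnc signal above the array medians and wholly above the knockdown clones (log2 difference 1.35, adjusted p = 0.139). Which part of the gene was deleted, and where the probes lie in it, is not given in the sources used here, so the residual signal does not check the knockout label. All 10 fibroblast markers examined, Col1a1, Vim and Pdgfra among them, were above the 25th percentile of each array, with a mean log2 signal of 10.84 to 11.30. Marker means were 4.81 to 4.97 for endothelial, 4.37 to 4.61 for macrophage and blood, 4.95 to 5.10 for epithelial, 5.19 to 5.56 for skeletal muscle and 5.63 to 6.09 for neural and glial genes, set against a 25th percentile of 3.98 to 4.05 and an array median of 5.38 to 5.49. The muscle marker Acta1 was 8.08 and 7.53 in knockout clones and 6.73 and 6.55 in knockdown clones, against 6.87, 6.95 and 6.93 in wild-type clones. The other muscle markers did not follow it. Myod1 was lower in both knockout clones than in every wild-type clone, and Myog and Myh3 lay within the wild-type range there. Des was above every wild-type clone in knockout clone 1 and below every one in knockout clone 2. Ranges over the 7 arrays were 1.53 for Acta1, and 2.18 and 1.23 for the neural markers Map2 and Tubb3. The part of such marker differences in the results was not tested. In whole cultures a change in the share of cells and a change in RNA per cell cannot be told apart. Sex-linked RNA differed within groups: Xist, transcribed from an inactive X chromosome, was 3.77 and 8.80 in knockout clones 1 and 2, and the Y-linked Uty was 7.57 and 3.14 in them. The 2 knockout clones thus do not look like cultures of the same animal, and the labels do not say whether they were. Xist was 3.51 to 3.74 on the other 5 arrays, while Uty was 4.98 in knockdown clone 2 and 6.75 to 8.02 on the other 4. Differences without both deficient clones numbered 2 are given beside the members whose values they shift most. Such a fit keeps 1 clone in each deficient group and takes its spread from the wild-type clones alone. Only the differences are therefore given.

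None of the 10 members passed the test in any comparison. Called genes, at an adjusted p under 0.05, made up 0.167% of all genes in knockout against wild type, 0.0179% in knockdown against wild type and 0.375% in knockout against knockdown, and 0 of 10 members were among them each time. At an unadjusted p under 0.05 the member count was 1 in each comparison, the same gene, Myc, against 12.8%, 14.1% and 17.9% of all genes. The median log2 difference over the members was 0.04 in knockout and 0.03 in knockdown relative to wild type, and 0.01 between knockout and knockdown, against -0.03, 0.03 and -0.05 over all genes. For 9 of the 10 members, Myc being the exception, the widest gap between clones of a group exceeded every difference between group means. The share of all genes with such a gap was not counted, so this count marks nothing particular to the members. The SD within groups, pooled over the 3 groups, was 0.208 at the median of the members and 0.14 at the median of all genes, and 7 of the 10 members lay above that all-gene median.

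**Figure D1:**
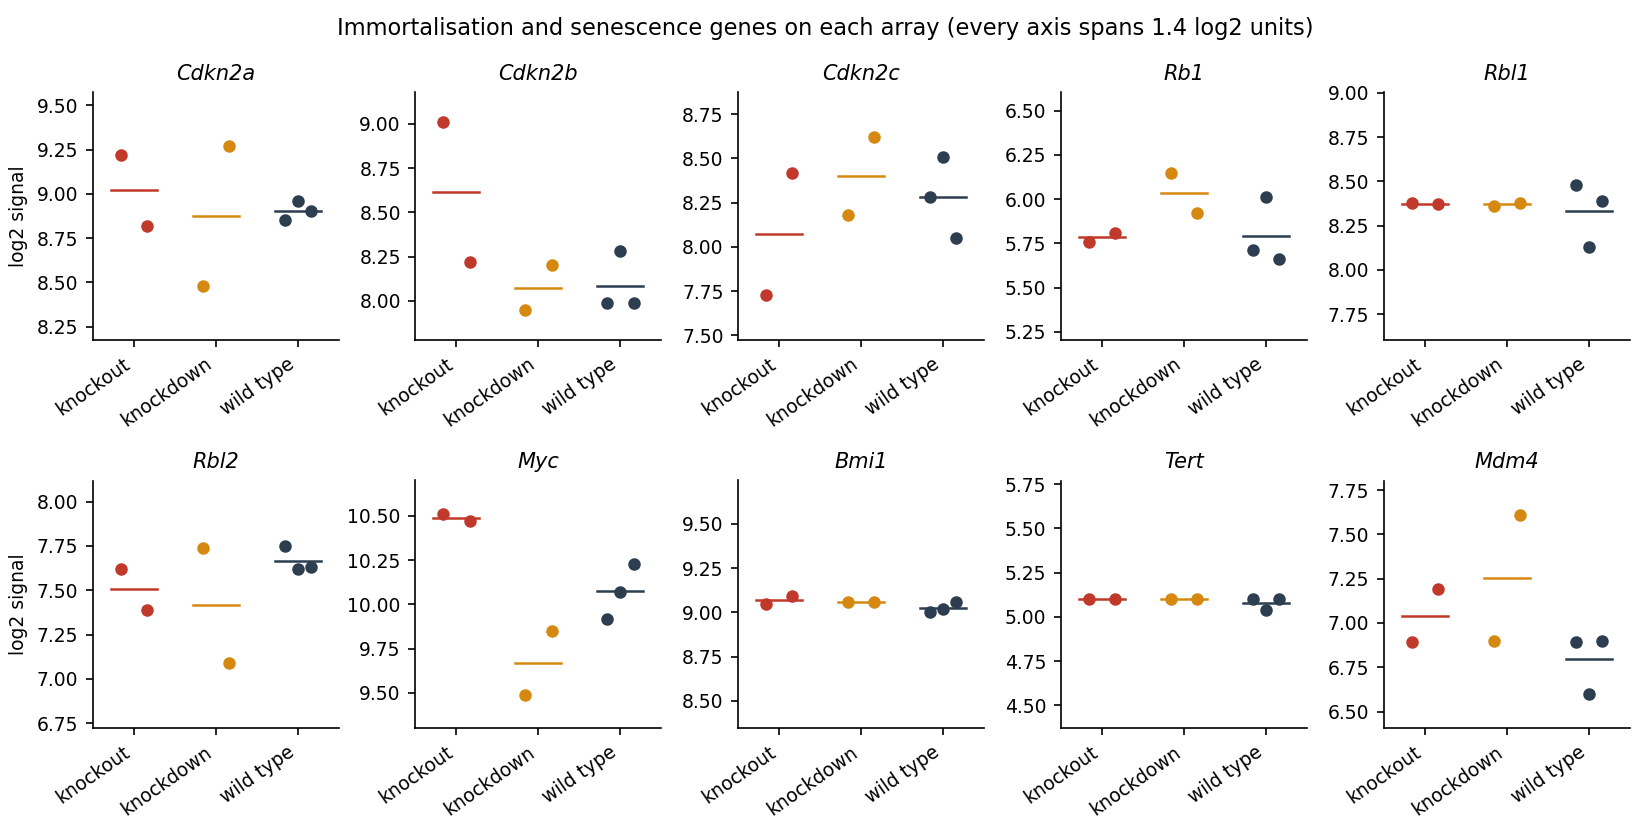
Log2 signal of each member (vertical axis, each spanning 1.4 log2 units) in knockout, knockdown and wild-type clones. Points are single arrays and lines are group means. For Myc, the knockout clones at 10.51 and 10.47 lie above the wild-type clones and the knockdown clones at 9.49 and 9.85 lie below them, while Tert and Bmi1 form flat rows.

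Myc, the transcription factor that drives growth and ribosome production, was the member whose groups separated in all 3 comparisons. Its log2 signal was 10.51 and 10.47 in knockout clones and 9.49 and 9.85 in knockdown clones, against 9.92, 10.07 and 10.23 in wild-type clones. Knockout clones thus lay above and knockdown clones below every wild-type clone, without overlap. Such an order, knockout wholly above and knockdown wholly below wild type, was found for 1.34% of all genes. Group means were 10.49 ± 0.0326 (SD, n = 2) in knockout, 9.67 ± 0.248 (SD, n = 2) in knockdown and 10.07 ± 0.155 (SD, n = 3) in wild type. The log2 difference was 0.42 ± 0.138 SE in knockout (95% interval 0.08 to 0.76, unadjusted p = 0.0221, adjusted p = 0.303). In knockdown it was -0.40 ± 0.138 SE (95% interval -0.74 to -0.06, unadjusted p = 0.0272, adjusted p = 0.291). Both comparisons use the same wild-type clones. The direct comparison of knockout with knockdown, which does not rest on them for its means, gave 0.82 ± 0.151 SE, a 1.77-fold difference (95% interval 0.45 to 1.19, unadjusted p = 0.00156, adjusted p = 0.0916). That is short of the threshold over all genes. Over 17 alternative settings the direct difference stayed between 0.65 and 1.02, with an unadjusted p under 0.05 in all 17 and an adjusted p from 0.0618 to 0.32. Without clones 2 of knockout and knockdown, which leaves 1 clone in each group, it was 1.02. The differences from wild type were then 0.45 in knockout and -0.58 in knockdown.

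The genes whose values ran most like those of Myc over the 7 arrays, among 2092 genes with a range of at least 1 log2 unit, were Pawr (Pearson correlation 0.987), Ammecr1 (0.950) and Tpm2 (0.943). Pawr, a regulator of apoptosis, had a log2 signal of 8.72 and 8.72 in knockout clones and 7.11 and 7.68 in knockdown clones, against 8.0, 8.06 and 8.19 in wild-type clones. It showed the same order of groups as Myc. These correlations are a description over 7 arrays that share a scale, and 13 genes exceeded 0.9.

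The INK4 inhibitors Cdkn2a, Cdkn2b and Cdkn2c, which block the cyclin D kinases, were present in every clone well above the 25th percentile of the arrays. Cdkn2a, the p16Ink4a and p19Arf gene (probe set 10514340, chromosome 4), had a log2 signal of 9.22 and 8.82 in knockout clones and 8.48 and 9.27 in knockdown clones, against 8.85, 8.96 and 8.90 in wild-type clones. The lowest and highest values of the gene were thus both in the knockdown group, 0.79 apart, while the 3 wild-type clones lay within 0.11. The platform annotation ties this probe set to transcripts of both products, so p16Ink4a and p19Arf cannot be told apart here. Its log2 difference was 0.12 in knockout (95% interval -0.47 to 0.71, adjusted p = 0.86) and -0.03 in knockdown (95% interval -0.62 to 0.56, adjusted p = 0.976). Without knockdown clone 1 the knockdown value was 0.37 and without knockdown clone 2 it was -0.43. Leaving out both clones numbered 2 gave 0.32 in knockout.

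Cdkn2b, which encodes p15Ink4b and neighbours Cdkn2a (probe set 10514347), had a log2 signal of 9.01 and 8.22 in knockout clones and 7.95 and 8.20 in knockdown clones, against 7.99, 8.28 and 7.99 in wild-type clones. Knockout clone 1 was the high value, and the remaining 6 arrays lay between 7.95 and 8.28. The knockout difference was 0.53 ± 0.242 SE (95% interval -0.06 to 1.12, adjusted p = 0.438). It was 0.93 without knockout clone 2 and 0.13 without knockout clone 1, each of which leaves 1 knockout clone. The knockdown difference was -0.01 (95% interval -0.60 to 0.58, adjusted p = 0.993). Knockout clones lay wholly above knockdown clones, a separation that 17.8% of all genes showed in that direction (difference 0.54, adjusted p = 0.345). The genes most like Cdkn2b over the arrays were Pqlc3 (Pearson correlation 0.992), Hspb6 (0.989) and Foxn3 (0.983), each highest in knockout clone 1, at 8.93, 9.84 and 8.11. Such correlations were common, with 71 of the 2092 genes compared above 0.9.

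Cdkn2c, which encodes p18Ink4c and lies elsewhere on chromosome 4 (probe set 10515090), had a log2 signal of 7.73 and 8.42 in knockout clones and 8.18 and 8.62 in knockdown clones, against 8.28, 8.51 and 8.05 in wild-type clones. The low value was knockout clone 1, the clone in which Cdkn2b was high. Its difference was -0.21 in knockout (95% interval -0.83 to 0.42, adjusted p = 0.751) and 0.12 in knockdown (95% interval -0.50 to 0.74, adjusted p = 0.878). Without knockout clone 1 the knockout value turned to 0.14. Leaving out both deficient clones numbered 2 gave -0.55 in knockout and -0.10 in knockdown.

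The genes around the Cdkn2a and Cdkn2b pair on chromosome 4 were read to set the locus beside its surroundings. Mtap, the methionine salvage enzyme gene often lost together with this locus in tumours, had a log2 signal of 9.63 and 9.42 in knockout clones and 9.05 and 9.25 in knockdown clones, against 9.89, 9.94 and 9.69 in wild-type clones. All 4 Tnc-deficient clones lay below the wild-type clones. Knockdown clones lay wholly below wild type for 12.9% of all genes. Knockout clones were separated from wild type, in either direction, for 28.5% of all genes, 13.2% wholly above and the rest wholly below. The difference was -0.31 in knockout (adjusted p = 0.37) and -0.69 in knockdown (95% interval -0.99 to -0.39, adjusted p = 0.137), neither past the threshold. Klhl9, a ubiquitin ligase adaptor gene, lay between 8.34 and 8.80 on all arrays. It differed from wild type by -0.21 in knockout (adjusted p = 0.501), where both clones also lay below every wild-type clone. That separation was narrow: Klhl9 was 8.65 and 8.34 in knockout clones, against 8.66, 8.80 and 8.66 in wild-type clones. With 1 array left out the knockout difference of Klhl9 ran from -0.37 to -0.06. Its knockdown difference was -0.07, with an adjusted p of 0.836. Dmrta1 at 3.91 to 4.16 and the interferon gene Ifnb1 at 3.98 to 4.19 lay near the 25th percentile of the arrays.

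**Figure D2:**
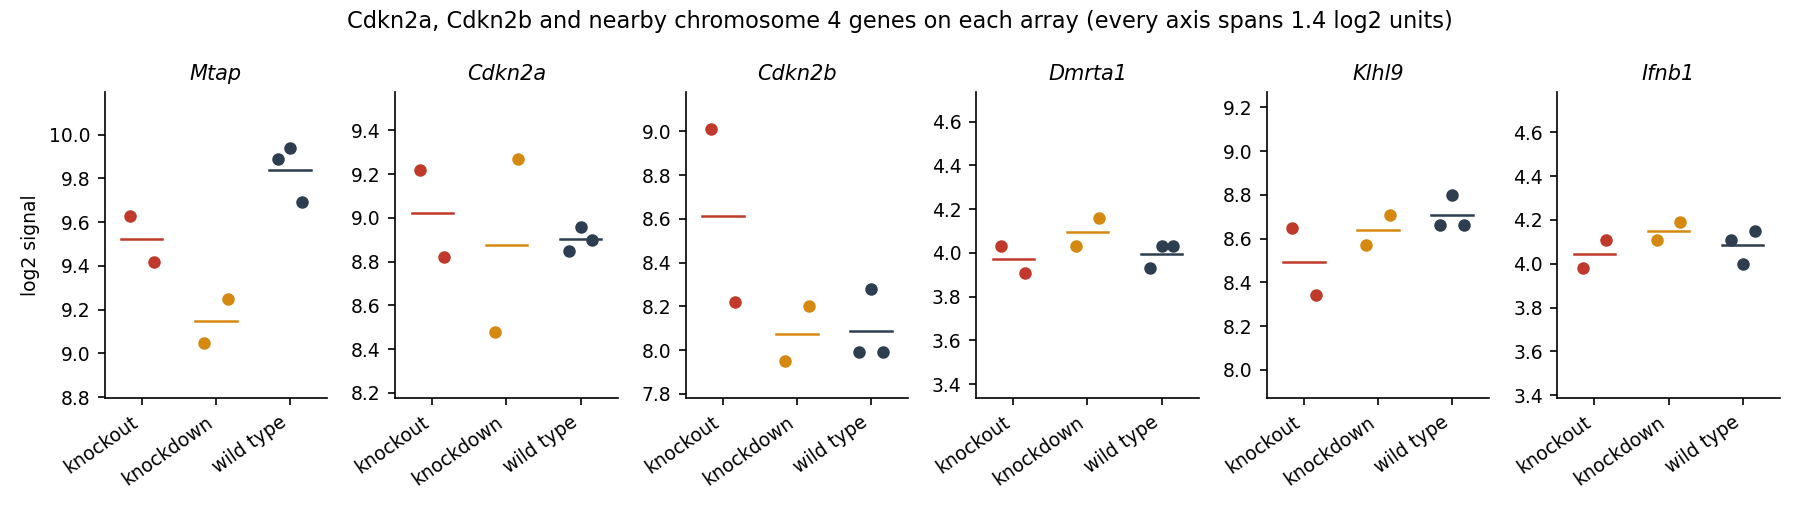
Log2 signal (vertical axis, each spanning 1.4 log2 units) of Cdkn2a, Cdkn2b and nearby chromosome 4 genes in knockout, knockdown and wild-type clones, with points for arrays and lines for group means. Mtap is lower in all 4 deficient clones than in wild type. Klhl9 is below every wild-type clone in knockout clone 1 (8.65 against 8.66 at the nearest), knockout clone 2 (8.34) and knockdown clone 1 (8.57). The clones of Cdkn2a and Cdkn2b overlap with wild type, and Dmrta1 and Ifnb1 stay at 3.91 to 4.19.

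The pocket proteins, which the INK4 inhibitors keep active and which restrain E2F factors, differed in how far their clones spread. The SD within groups was 0.156 for Rb1, 0.129 for Rbl1 and 0.25 for Rbl2, against the all-gene median of 0.14. Rb1, the retinoblastoma gene (probe set 10421526), had a log2 signal of 5.76 and 5.81 in knockout clones and 6.15 and 5.92 in knockdown clones, against 5.71, 6.01 and 5.66 in wild-type clones. Knockout clones lay below knockdown clones without overlap, as 1 of 3 members whose knockout and knockdown clones separated (Myc and Cdkn2b were the others), against 45.0% of all genes. The difference from wild type was -0.01 in knockout (95% interval -0.33 to 0.31, adjusted p = 0.987) and 0.24 in knockdown (95% interval -0.08 to 0.56, adjusted p = 0.477), and that between knockout and knockdown was -0.25 (adjusted p = 0.402). Without both clones numbered 2 the knockdown value was 0.35. The values of Rb1 lie just above the array medians.

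Rbl1, which encodes p107 and is a known E2F target (probe set 10489127), had a log2 signal of 8.38 and 8.37 in knockout clones and 8.36 and 8.38 in knockdown clones, against 8.48, 8.13 and 8.39 in wild-type clones. The 4 deficient clones lay between 8.36 and 8.38, and wild-type clone 2 was the low value. The 95% intervals were -0.24 to 0.32 in knockout and -0.24 to 0.31 in knockdown (adjusted p = 0.909 and 0.921). Rbl2, which encodes p130, the pocket protein of resting cells (probe set 10573867), had a log2 signal of 7.62 and 7.39 in knockout clones and 7.74 and 7.09 in knockdown clones, against 7.75, 7.62 and 7.63 in wild-type clones. Both deficient clones numbered 2 were lower than every wild-type clone. Its difference was -0.16 in knockout (95% interval -0.64 to 0.32, adjusted p = 0.745) and -0.25 in knockdown (95% interval -0.73 to 0.23, adjusted p = 0.616). Without both clones numbered 2 these became -0.05 and 0.08.

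Mdm4, an Mdm2 relative that inhibits p53 directly (probe set 10357773, chromosome 1), had a log2 signal of 6.89 and 7.19 in knockout clones and 6.90 and 7.61 in knockdown clones, against 6.89, 6.60 and 6.90 in wild-type clones. The high values were the clones numbered 2 of both deficient groups, the same 2 that were low for Rbl2. The difference was 0.24 in knockout (95% interval -0.32 to 0.80, adjusted p = 0.673) and 0.46 in knockdown (95% interval -0.10 to 1.02, adjusted p = 0.444). Without both clones numbered 2 these were 0.09 and 0.10. These are also the clones with low Y-linked signal, and the part of that difference in Mdm4 and Rbl2 was not tested. The genes most like Mdm4 over the arrays were Tril (Pearson correlation 0.911), Ncald (0.903) and Ces2g (0.886), all highest in knockdown clone 2.

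Bmi1, the polycomb repressor of Cdkn2a (probe set 10469514, chromosome 2), had a log2 signal of 9.05 and 9.09 in knockout clones and 9.06 and 9.06 in knockdown clones, against 9.0, 9.02 and 9.06 in wild-type clones. The whole range over 7 arrays was 0.10, against a median range of 0.492 over all genes. The 95% interval of its difference was -0.11 to 0.21 in knockout (adjusted p = 0.782) and -0.13 to 0.19 in knockdown (adjusted p = 0.858). Tert, the catalytic subunit of telomerase (probe set 10406086, chromosome 13), had a log2 signal of 5.10 and 5.10 in knockout clones and 5.10 and 5.10 in knockdown clones, against 5.10, 5.04 and 5.10 in wild-type clones. On 5 of the 7 arrays the deposited value was the same to 6 decimals, and it lay below the array medians. Bmi1, Rbl1, Rbl2 and Mdm4 each shared a value on 2 arrays. Of all probe sets, 46.2% shared a value on 2 or more arrays and 12.91% on 4 or more. The Tert intervals of -0.14 to 0.18 in both comparisons with wild type therefore cover the repeated summary value and do not measure how well a change in transcript would have been seen.

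**Figure D3:**
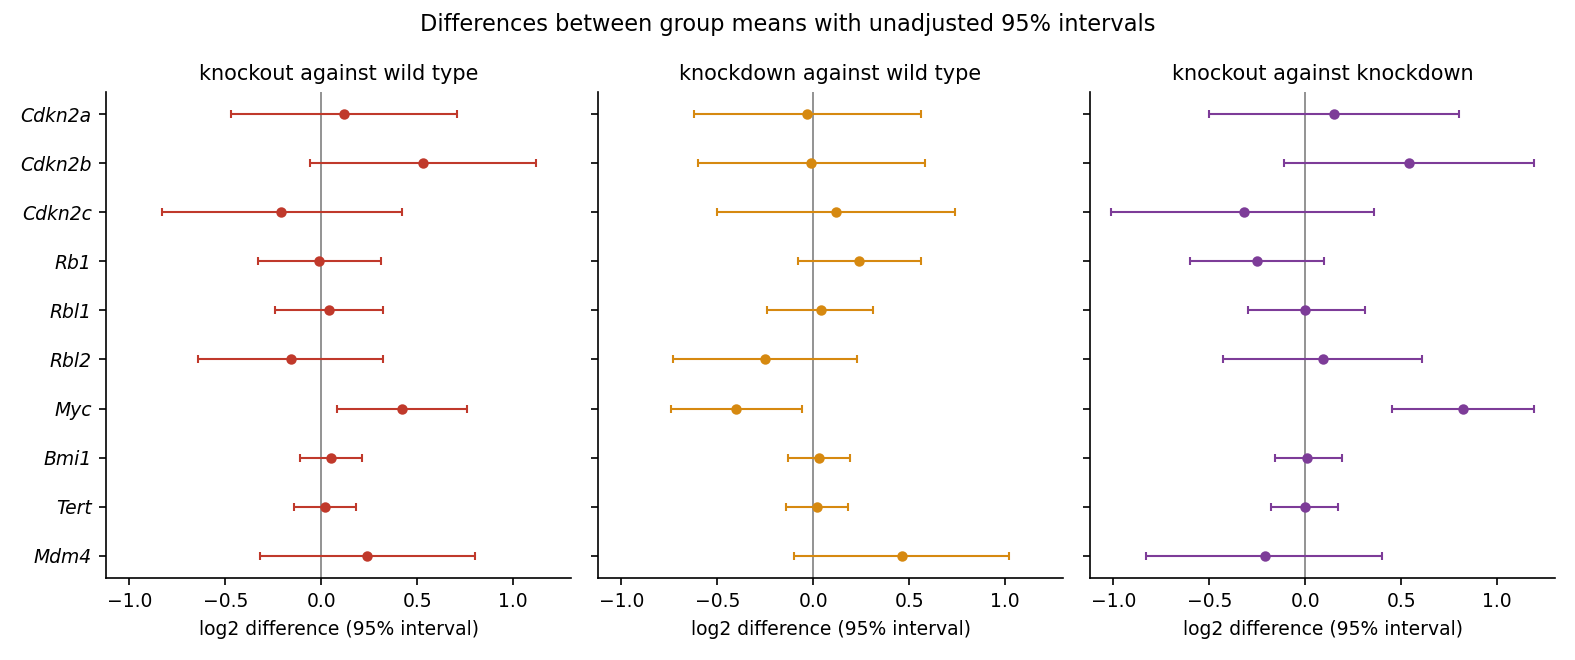
Log2 difference between group means for each member (points) with unadjusted 95% intervals (bars), for knockout against wild type, knockdown against wild type and knockout against knockdown. The intervals of Myc lie off 0 in all 3 panels (0.08 to 0.76, -0.74 to -0.06 and 0.45 to 1.19), and those of the other 9 members cross 0.

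The genes that these regulators act with or on were read as 11 lists holding 163 genes, of which 152 were tested. None of the 152 passed in knockout or in knockdown against wild type, where 33 and 36 had an unadjusted p under 0.05, against 12.8% and 14.1% of all genes. Between knockout and knockdown 1 was called higher and 0 were called lower among them, against 0.375% of all genes called in either direction. At an unadjusted p under 0.05 there were 41, against 17.9% of all genes. The counts below therefore describe positions of groups and not called changes, apart from Eed.

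Myc target genes, mostly of ribosome production and nucleotide synthesis, lay lower in knockdown for 13 of 15 genes, with a median log2 difference of -0.35 against 0.03 over all genes. For 10 of the 15, the knockdown clones lay wholly below the wild-type clones, against 12.9% of all genes. Tfrc, the transferrin receptor gene, had a log2 signal of 10.12 and 10.00 in knockdown clones, against 10.93, 10.79 and 10.93 in wild-type clones (difference -0.82, adjusted p = 0.162). Npm1, a nucleolar chaperone gene, differed by -0.53 (adjusted p = 0.163). In knockout 6 of 15 were higher and 9 lower (median -0.09), with Bop1, a ribosome assembly gene, at 0.58 (adjusted p = 0.124) and Cad, a pyrimidine synthesis gene, at -0.52 (adjusted p = 0.221). Knockout clones lay wholly above wild type for 2 of the 15 and wholly below for 5, against 28.5% of all genes separated in either direction. The knockout median lay close to the -0.03 of all genes, while Myc itself was at 0.42. Between knockout and knockdown 13 of 15 were higher, with a median of 0.30 against -0.05 over all genes, and 9 lay wholly above, against 17.8% of all genes. Of 13 Myc partners and antagonists, 7 were higher in knockout (median 0.05) and 9 lower in knockdown (median -0.08). Max, the obligate partner of Myc, differed by 0.46 in knockout (adjusted p = 0.284), and the antagonist Mxd3 by 0.42 in knockdown (adjusted p = 0.2). Another antagonist, Mxd4, lay above wild type in both deficient groups. Its value relative to wild type was 0.50 for knockdown clones, at an adjusted p of 0.231. For knockout clones it was 0.27, at an adjusted p of 0.492.

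Cell cycle entry genes downstream of the INK4 inhibitors lay mostly lower in knockdown. Of 9 G1 cyclins and kinases, 8 were lower (median -0.28), with Ccnd1, the cyclin D1 gene, at 10.35 and 10.42 in knockdown clones, against 11.13, 10.88 and 10.82 in wild-type clones (difference -0.56, adjusted p = 0.162). Ccne2, a cyclin E gene, stood at 0.22 relative to wild type in knockout, with an adjusted p of 0.38, and at -0.45 in knockdown, with an adjusted p of 0.162. In knockout the cyclin and kinase median was -0.03, with Cdk6 at -0.69 (adjusted p = 0.341). Of 15 E2F and DREAM complex factors 10 were lower in knockdown (median -0.30), with the repressive factor gene E2f4 at -0.58 (adjusted p = 0.123), and 10 were lower in knockout (median -0.07), with E2f8 at -0.82 (adjusted p = 0.156). E2F target genes of S phase had medians of -0.08 in knockout and -0.11 in knockdown over 19 tested genes. Ccna2, the cyclin A2 gene, differed by -0.33 in knockout (adjusted p = 0.217). Orc1, an origin recognition gene, differed by -0.84 in knockdown (adjusted p = 0.169). Of the remaining INK4 and CIP inhibitors 3 were tested, all 3 lower in knockout (median -0.17), and Cdkn1c, the p57Kip2 gene, was at -0.51 in knockout, with an adjusted p of 0.471. The CIP inhibitor gene Cdkn1a had no single-symbol probe set and was not read.

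**Figure D4:**
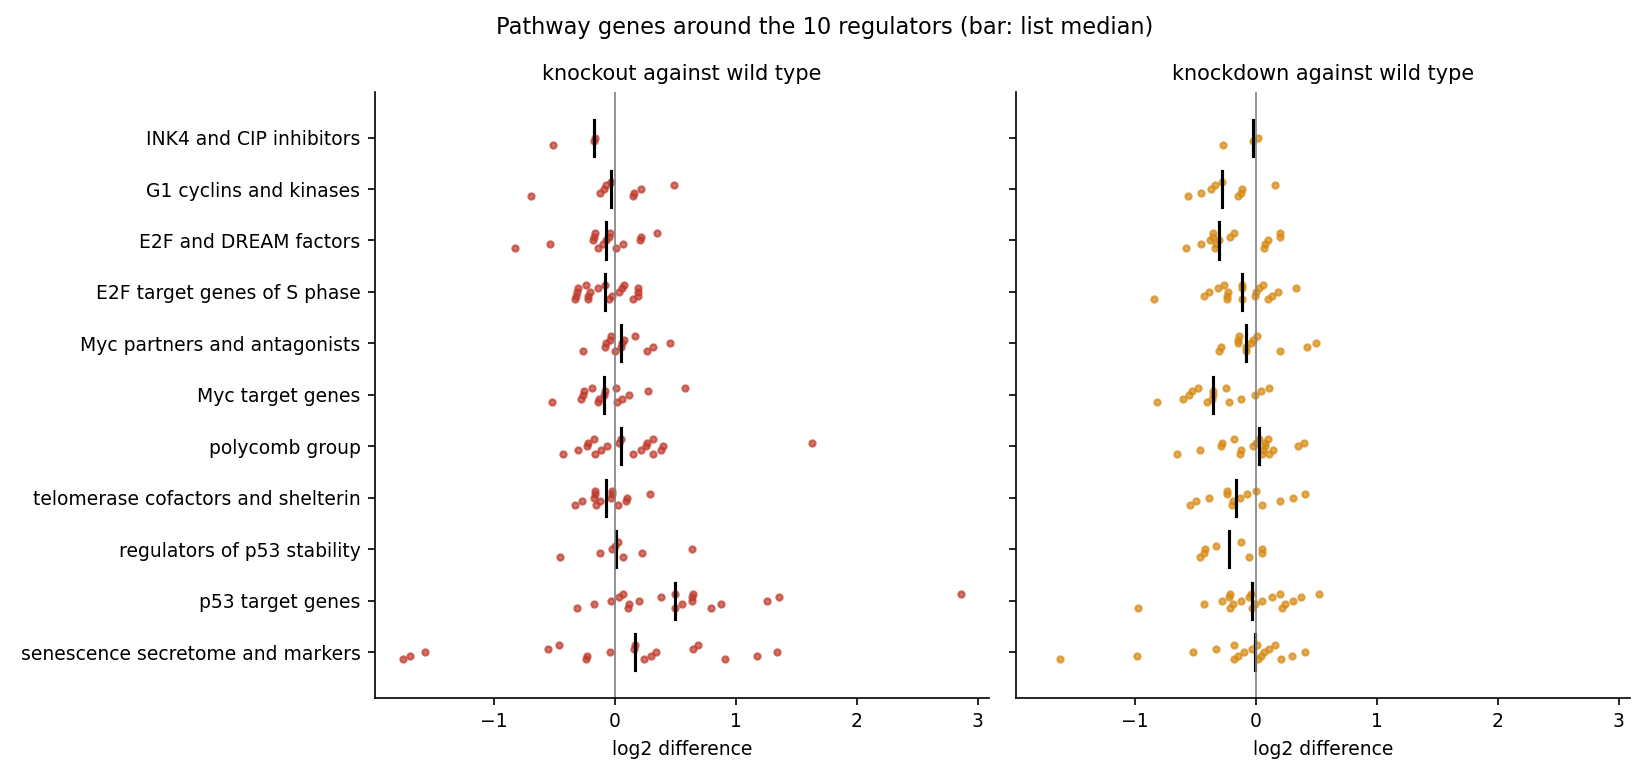
Log2 difference of each tested gene (points, horizontal axis) in 11 pathway lists (rows), for knockout and knockdown against wild type, with bars at list medians. The Myc target bar stands at -0.09 in knockout and -0.35 in knockdown, and the p53 target bar at 0.50 and -0.03.

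Among polycomb genes, the group of Bmi1, medians were near 0 (0.05 in knockout and 0.03 in knockdown over 19 tested genes). Single genes nevertheless separated: knockout clones lay wholly above wild type for 9 of the 19 and wholly below for 4. Over all genes 13.2% were wholly above and 28.5% separated in either direction. At an unadjusted p under 0.05 by limma, 7 were higher and 1 lower in knockout, against 12.8% of all genes. Pcgf5, a relative of Bmi1, had a log2 signal of 8.23 and 8.96 in knockout clones and 6.87 and 7.02 in knockdown clones, against 7.0, 6.89 and 7.01 in wild-type clones. Both knockout clones lay above the 5 other arrays, by 1.63 ± 0.208 SE against wild type, with an adjusted p of 0.0668. It passed in 4 of 17 alternatives, among them the fit without knockout clone 1, which keeps 1 knockout clone. Eed, a core subunit of the methylating polycomb complex, had 8.19 and 8.21 in knockout clones and 7.46 and 7.20 in knockdown clones, with 8.03, 7.95 and 7.95 in wild-type clones. It was higher in knockout than in knockdown (0.87 ± 0.106 SE, adjusted p = 0.0488), the single call among the 152 genes, against 0.375% of all genes. The call held in 3 of 17 alternatives (adjusted p from 0.0326 to 0.312) and ended with any 1 of the 7 arrays left out, where the difference was 0.74 to 1.00. A second Eed probe set, at 3.77 to 3.92 on all arrays and so below the 25th percentile, showed a difference of 0.00.

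Telomerase cofactors and shelterin genes had medians of -0.08 in knockout and -0.16 in knockdown over 14 tested genes. Dkc1, which encodes a pseudouridine synthase bound to telomerase RNA, stood at 9.45 and 9.35 in knockdown clones, against 10.01, 9.93 and 9.89 in wild-type clones (log2 difference -0.54, adjusted p = 0.11). Its knockout difference was -0.16, with an adjusted p of 0.438. Nhp2, a partner of Dkc1, stood at -0.49 in knockdown, with an adjusted p of 0.123, and at -0.27 in knockout, with an adjusted p of 0.245. The regulators of p53 stability had medians of 0.02 in knockout and -0.22 in knockdown over 8 tested genes. Mdm2, the p53 ubiquitin ligase that works with Mdm4, had a log2 signal of 8.85 and 8.17 in knockout clones and 7.48 and 7.39 in knockdown clones, against 8.12, 7.75 and 7.74 in wild-type clones. Like Myc, it was wholly above wild type in knockout and wholly below it in knockdown (1.07 ± 0.243 SE between knockout and knockdown, adjusted p = 0.127). Mdm2 is itself a p53 target.

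Targets of p53 lay higher in knockout for 17 of 20 genes, with a median of 0.50, and 12 lay wholly above wild type, against 13.2% of all genes. Cdkn1a and Bax, also listed as p53 targets, had no single-symbol probe set and were not read. Eda2r, a death receptor gene, had a log2 signal of 6.62 and 7.86 in knockout clones and 4.49 and 4.20 in knockdown clones, against 4.24, 4.77 and 4.15 in wild-type clones. Its knockout difference was 2.86 ± 0.383 SE, with an adjusted p of 0.0686, and Zmat3, an RNA-binding protein gene, stood at 1.26, with an adjusted p of 0.0783. Eda2r passed in 2 and Zmat3 in 1 of 17 alternatives in knockout against wild type, and in 3 and 2 of 17 in knockout against knockdown. In knockdown the p53 target median was -0.03, and 15 of 20 were higher in knockout than in knockdown (median 0.42). Genes of the senescence secretome and other senescence markers had medians of 0.16 in knockout and -0.01 in knockdown over 18 tested genes. In knockout 10 were higher and 8 lower than in wild type. Between knockout and knockdown 13 were higher and 5 lower (median 0.29). Igfbp3, a growth factor binding protein gene, had a log2 signal of 5.12 and 5.53 in knockout clones, against 7.02, 7.08 and 6.96 in wild-type clones (difference -1.69, adjusted p = 0.117). Vegfa, a vascular growth factor gene, differed by 0.65 in knockout (adjusted p = 0.181). Lmnb1, the lamin gene that falls in senescent cells, was at -0.55 in knockout, with an adjusted p of 0.284, and at 0.41 in knockdown, with an adjusted p of 0.366. Between knockout and knockdown it differed by -0.96 (adjusted p = 0.102). Hmga2, a growth-linked chromatin gene, differed by -0.98 in knockdown (adjusted p = 0.162). The 1 member gene that separated from wild type in each deficient group, Myc, stood against 28.5% of all genes with separated clones in knockout and 30.5% in knockdown.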

How the data were processed

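Signals were deposited on a log2 scale, which the authors made with the affy package in R 2.8.0, per the submitters' processing notes. The scale was taken from their span, 1.81 to 13.68. How probes were summarised, background-corrected and normalized is not stated there. Such steps can compress low signals and repeat values between arrays. Pairs of arrays correlated at 0.979 to 0.990, and the number of clones limits the precision.

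Of 34760 probe sets, 21640 carried a single symbol in the platform annotation (19937 genes) and 1321 carried several, which name no gene here. Where a gene had several probe sets, the brightest on average was used (954 genes). RefSeq's GRCm38.p6 gene table matched 21553 single-symbol probe sets. A gene was tested if it exceeded the 25th percentile on 2 or more arrays. Means of the 3 groups were fitted by limma 3.58.1 under R 4.3.3 with lmFit and eBayes, two-sided, with 4 residual and 2.06 prior degrees of freedom. Benjamini-Hochberg adjustment ran over every gene tested, and a call is an adjusted p under 0.05. The fit was tested on simulated data. Arrays are separate clones and no label says which share an animal, so p-values cover only the variation among these clones.

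The members and lists were chosen with earlier results of these data known. Named are the 10 members, Tnc, 4 neighbours of Cdkn2a, called genes of a list or else those of smallest p, and the 3 genes best correlated with each of the 3 members whose range reached 1. The main fit did not pair samples by clone number. Deviations from group means of same-numbered clones correlated at -0.074 to 0.199. Whether same-numbered clones shared a culture or batch was not tested. Alternatives were no filter, a filter at the 50th percentile, quantile normalization, median centring, the mean of probe sets, a fit of the compared groups alone, an intensity trend, array weights, a replicate block, each array left out, and both deficient clones numbered 2 left out. A fit without 1 deficient clone keeps 1 clone in that group, so its p-value holds no spread within that group.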

Additional observations from a re-analysis of the deposited data

Results flagged for a closer look

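Myc was marked because its effect differed in direction between the 2 deficient groups: every knockout clone lay above and every knockdown clone below all wild-type clones. The direct difference of knockout from knockdown was 0.82 on the log2 scale, with an adjusted p of 0.0916 by limma. The groups of 2 and 3 clones are too small for the check on single outlying arrays.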

How the results depend on the processing

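No member was called in any comparison under any of 17 alternatives, with 0 to 0 members called when single arrays were left out; Myc had an unadjusted p under 0.05 in 12 of them for knockout against wild type, 13 for knockdown against wild type and 17 for knockout against knockdown. Of 507 member values, 33 changed sign and 0 crossed the threshold, and 13 of 30 member differences kept their sign throughout. The stricter filter left no value for Tert. The alternatives are not all distinct. In knockout against wild type, Myc had the same difference and p with only the compared groups and without either knockdown clone. The percentage of all genes called ran from 0.00595 to 0.66 for knockout against wild type, 0 to 0.0251 for knockdown against wild type and 0 to 0.927 for knockout against knockdown. With the replicate block 0 members and 2, 0 and 2 genes were called in these comparisons, and Myc stood at 0.50, -0.32 and 0.82. The labels do not say whether clones of the same number share anything. In knockout against wild type, Rb1 turned to 0.03 with quantile normalization and 0.04 with median centring. Ranges with 1 array left out were -0.08 to 0.32 for Cdkn2a, -0.55 to 0.14 for Cdkn2c, -0.08 to 0.10 for Rb1 and -0.06 to 0.11 for Rbl1. In knockdown against wild type, quantile normalization gave 0.01 for Cdkn2a, 0.02 for Cdkn2b, -0.01 for Tert and 0.03 for Cdkn1b. Median centring gave -0.01 for Tert, and the mean of probe sets gave 0.09 for Cdkn1b. Without both deficient clones numbered 2, Cdkn2c stood at -0.10 and Rbl2 at 0.08. Ranges with 1 array left out were -0.43 to 0.37 for Cdkn2a, -0.13 to 0.11 for Cdkn2b, -0.10 to 0.34 for Cdkn2c, -0.07 to 0.11 for Rbl1, -0.58 to 0.08 for Rbl2 and -0.08 to 0.06 for Cdkn1b. In knockout against knockdown, quantile normalization gave -0.07 for Rbl1, -0.07 for Bmi1 and 0.08 for Tert, and median centring gave 0.07 for Tert. Without both clones numbered 2, Rbl2 stood at -0.12, Bmi1 at -0.01, Cdkn1b at 0.02 and Klhl9 at 0.08. Ranges with 1 array left out were -0.25 to 0.55 for Cdkn2a, -0.67 to 0.02 for Cdkn2c, -0.0022 to 0.01 for Rbl1, -0.24 to 0.42 for Rbl2, -0.01 to 0.03 for Bmi1, -0.57 to 0.14 for Mdm4, -0.32 to 0.0039 for Cdkn1b and -0.30 to 0.01 for Klhl9. Besides Pcgf5, Eda2r and Zmat3, Ccne2 and Tfdp2 passed in 1 alternative each, median centring, for knockout against knockdown. The cause of these changes was not tested.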
